A study of Mus musculus with 24 samples.

Results

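Lcn2, C4b and Esm1 are 3 genes for secreted proteins that were chosen by measured values: of 19983 genes tested, they were picked because TPM in both LncMyoD knockout clones was above that in wild type cells. Over the 24 libraries, 140 assembled transcripts carry one of these reference names: 109 of Lcn2, 15 of C4b and 16 of Esm1. The summed TPM given below also counts transcripts without a reference name that have at least 50% of their exonic length in the gene. The elevation over wild type is therefore the reason for the choice. It is described here without a test, and the responses to treatment are tested.

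All libraries came from C3H 10T1/2 cells, fibroblasts of mouse embryo origin that convert towards skeletal muscle when given the transcription factor MyoD. There were 3 lines: LncMyoD-KO clone 1, LncMyoD-KO clone 2 and wild type. Each knockout line is 1 clone of cells. LncMyoD is a long noncoding RNA encoded near Myod1. Cells of each line received MyoD adenovirus together with LncMyoD plasmid, MyoD adenovirus alone, LncMyoD plasmid alone, or no treatment, with 2 libraries in each of the 12 groups. No group is labelled as having received an empty virus or an empty plasmid, and per the labels cells moved into medium with 2% horse serum, in place of 10% fetal bovine serum, once MyoD had induced transdifferentiation. The change of medium and MyoD cannot be told apart. Whether the 2 libraries of a group were grown separately is not stated in the labels, and the p-values reflect no more than the spread between these libraries, which may be technical. In bulk RNA, fewer cells of a type and less RNA per cell cannot be told apart.

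Lcn2 encodes lipocalin 2, an acute phase protein that binds bacterial siderophores and so withholds iron. Its transcription is known to respond to interleukin 1 and interleukin 17 through NF-kB, IkappaBzeta (Nfkbiz) and C/EBP factors. C4b encodes complement component 4, which C1s and the MASP proteases cleave in the classical and lectin pathways. Interferon gamma is known to raise its transcription. Esm1 encodes endocan, a dermatan sulphate proteoglycan best known from endothelial tip cells, where VEGF raises it.

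Lcn2 lies on the minus strand at chr2:32384633-32388252 (mm10), C4b on the minus strand at chr17:34728380-34743882 and Esm1 on the plus strand at chr13:113209659-113218098. Stretches of promoter are shown for Lcn2 and Esm1 because the cells received MyoD, a factor that binds E-boxes, and because Lcn2 is a known NF-kB target. They are RefSeq sequences of GRCm38.p6, 5′ to 3′ on the strand of the gene. The first has 53 bases at chr2:32387798-32387850, just upstream of the coding transcript Lcn2-201, which starts at base 32387797. They lie inside the annotated span of the gene, since other Lcn2 transcripts start further upstream, and were limited to bases outside every annotated Lcn2 exon. A match to the kappaB motif of NF-kB (GGG and CC with 5 bases of any kind between) on the reverse strand is in capitals. The second has 250 bases at chr13:113209409-113209658 upstream of Esm1, with E-boxes (CANNTG, the motif class bound by MyoD) in capitals.
Lcn2: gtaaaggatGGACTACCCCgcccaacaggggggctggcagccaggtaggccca
Esm1: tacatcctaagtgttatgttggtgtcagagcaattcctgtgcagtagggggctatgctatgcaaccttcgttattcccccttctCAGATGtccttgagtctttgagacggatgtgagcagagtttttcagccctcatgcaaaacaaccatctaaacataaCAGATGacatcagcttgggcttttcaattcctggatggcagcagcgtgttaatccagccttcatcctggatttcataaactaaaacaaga
Counted from the RefSeq start of Lcn2 at base 32387739, the NF-kB match lies at -102 to -93. The E-boxes, both CAGATG, lie at -166 to -161 and -90 to -85 from the Esm1 start at base 113209659. Searched on both strands over 250 bases, an E-box occurs in 66.2% of 32841 RefSeq promoters and the NF-kB motif in 45.8%. Neither promoter holds the AP-1 motif TGANTCA (6.75% of promoters), the STAT motif TTCNNNGAA (7.02%), the C/EBP motif TTNCGNAA (2.04%) or the TATA box TATAAA (12.4%). These are matches of letters only and describe no binding.

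The measure used below is TPM, a length-scaled share of the RNA in a library, as the authors deposited it for each assembled transcript. It was summed over the transcripts of a gene, with and without a reference name. The lines differ in what fills that share. A ribosomal RNA window took 36.8% to 70.0% of TPM in clone 1, 2.68% to 7.90% in clone 2 and 55.6% to 69.2% in wild type. The 36.8% came from 1 library, the first of clone 1 with MyoD alone, and the next lowest of clone 1 was at 59.2%. Genes at 1 TPM or more numbered 8264 to 10043 in clone 1, 14078 to 15924 in clone 2 and 8659 to 10692 in wild type. Clone 2 therefore stands apart as a line: all 8 of its libraries were above all 8 of wild type for 42.2% of the genes tested, against 0.190% in clone 1. Both clones were above wild type in this way for 21 genes, 0.105% of those tested, and Lcn2, C4b and Esm1 are among them. Myod1 was at 1665 to 3641 TPM with MyoD against 2.44 to 3.76 without it in clone 1, 930 to 1222 against 0 to 1.39 in clone 2, and 3301 to 3735 against 2.32 to 3.23 in wild type, so the virus labels hold in every line.

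Lcn2 was the most abundant of the 3 genes in clone 1 and clone 2 by median TPM. Its TPM was 55.65 and 57.19 in untreated clone 1, 38.45 and 42.07 in untreated clone 2 and 1.75 and 3.57 in untreated wild type. Over all 8 libraries the median was 52.8 TPM in clone 1 (19.0 to 82.6), 40.3 TPM in clone 2 (29.8 to 56.1) and 1.85 TPM in wild type (0.440 to 3.57). The median was 28.5 times that of wild type in clone 1 and 21.8 times in clone 2, with no overlap of either clone with wild type. The clones overlapped each other. With only reference-named transcripts counted, the medians were 50.4, 35.7 and 1.02 TPM in clone 1, clone 2 and wild type.

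The transcripts assembled from Lcn2 also differed by line. Lcn2-201, the protein-coding transcript with 6 exons and 915 bases, was assembled in 8 of 8 libraries of clone 1, 8 of 8 of clone 2 and 4 of 8 of wild type. It held a median of 80.0% of Lcn2 TPM in clone 1 (67.4% to 91.9%) and 81.1% in clone 2 (67.9% to 99.7%), against 15.5% in wild type (0% to 89.3%). Transcripts with a retained intron held 0.869% to 13.8% in clone 1, 0.0521% to 1.72% in clone 2 and 3.89% to 100% in wild type. The clones thus carried the spliced, coding transcript in every library, while 4 of 8 wild type libraries held Lcn2 TPM only in transcripts with a retained intron or without a reference name.

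Esm1 was listed at 0 in all 8 wild type libraries and assembled in all 16 clone libraries, each time as its single annotated transcript of 3 exons and 2097 bases. A gene listed at 0 can be a failed assembly, so no fold over wild type is given. In clone 1 the median was 6.84 TPM (3.98 to 8.31) and in clone 2 it was 36.4 TPM (21.2 to 39.4), 5.32 times as high as in clone 1 and with no overlap. Clone 2 lay above clone 1 in this way for 43.8% of the genes tested, so the order of the clones is common to many genes. It was not kept on another scale, as given below.

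**Figure D1:**
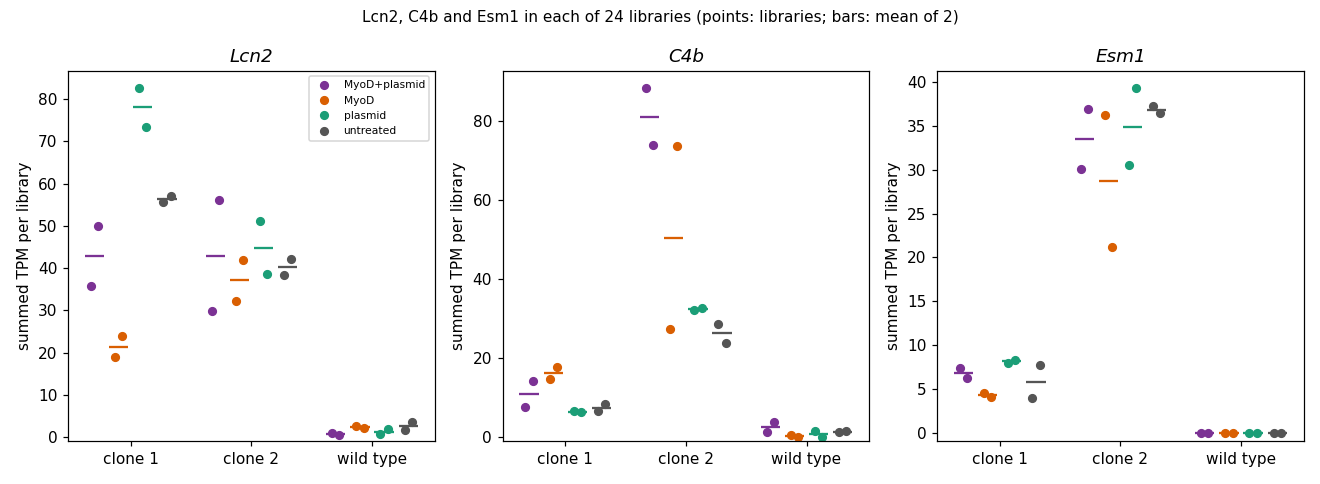
Summed TPM (vertical axis) of Lcn2, C4b and Esm1 in each of 24 libraries, by line (horizontal axis) and treatment (colour); points are libraries and bars the mean of 2. Every clone library lies above every wild type library, from 19.0 against at most 3.57 TPM for Lcn2, from 6.38 against at most 3.81 TPM for C4b, and from 3.98 against 0 TPM for Esm1.

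C4b was highest in clone 2. Its summed TPM had a median of 8.05 in clone 1 (6.38 to 17.8), 32.5 in clone 2 (23.96 to 88.4) and 1.46 in wild type (0 to 3.81). The median was 5.53 times that of wild type in clone 1 and 22.3 times in clone 2. In clone 1, however, nearly all of this TPM came from assembled transcripts without a reference name, the longest of which had 4 to 36 exons in a library. With only reference-named transcripts, the ones by which the gene was chosen, C4b was at 0 in 7 of 8 libraries of clone 1 and at 0.364 TPM in the other, a transcript with a retained intron, against 0 in 7 of 8 libraries of wild type and 0.0680 TPM in the other. So the description of C4b as high in both clones holds for clone 2 and is not borne out by named C4b transcripts in clone 1.

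C4b-201, the coding transcript with 41 exons, was assembled in 0 of 8 libraries of clone 1, 5 of 8 of clone 2 and 0 of 8 of wild type. In clone 2 it was at 25.3 and 22.5 TPM without treatment, 25.3 and 18.4 TPM with the plasmid and 18.6 TPM in 1 library with MyoD. Coverage averaged over the 41 exons, a measure added after the data had been seen, depends less on how transcripts were joined. By it C4b had a median of 2.21 in clone 1, 27.1 in clone 2 and 0.327 in wild type, on the TPM scale. Clone 2 then stood at 82.8 times wild type and 12.2 times clone 1 with no overlap. Clone 1 stood at 6.77 times wild type, with 7 of 8 libraries above all of wild type.

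The exons show where this coverage lay. Between 15 and 39 of the 41 exons had coverage in a library of clone 1, 37 to 41 in clone 2 and 3 to 21 in wild type. The first 13 exons are those held by transcripts of clone 2 that run on to Tnxb, and were chosen after the coverage had been seen. They averaged 1.38 to 8.98 in clone 1, 22.2 to 69.7 in clone 2 and 0 to 1.36 in wild type on the TPM scale. The other 28 exons averaged 0.119 to 2.195 in clone 1, 17.7 to 38.7 in clone 2 and 0 to 0.529 in wild type. In clone 1, coverage was thus greater at the 5′ end than over the rest. Within the 13 exons it was uneven: in every library of clone 1, exons 1 to 3 each had more coverage than any exon from exon 5 on. In clone 2 coverage ran through the gene with a trough in its middle.

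**Figure D2:**
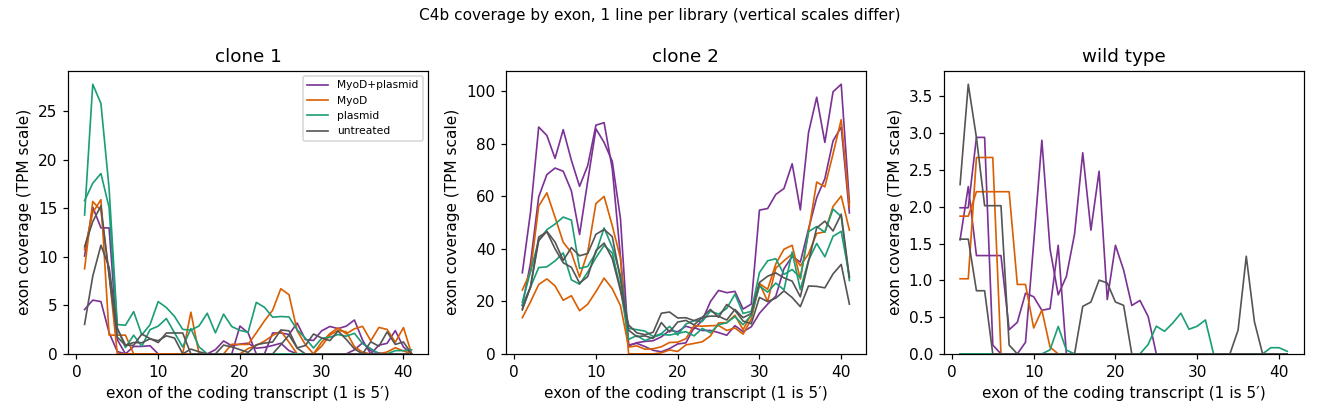
Coverage of each of the 41 exons of C4b-201 on the TPM scale (vertical axis, which differs between panels) from the 5′ end (horizontal axis), 1 line per library, coloured by treatment. In clone 1 the coverage was highest over the first exons, while in clone 2 it spanned 37 to 41 exons in every library.

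C4b has a near copy, C4a, beside it on the minus strand at chr17:34809092-34823464, which the annotation classes as a processed transcript. C4b-201 and C4a-207 are 96.1% identical over 5367 aligned bases, and 871 of 5280 windows of 100 bases of C4b-201, the length of a read, occur without a mismatch in C4a-207. Where the copies are identical, reads cannot be told apart, so the split between them is uncertain. The 60 bases of exon 21 below are shown because they hold 13 differences, in capitals, and so are among the places where reads can be told apart; they lie at chr17:34735430-34735489 in C4b and chr17:34816086-34816145 in C4a.
C4b: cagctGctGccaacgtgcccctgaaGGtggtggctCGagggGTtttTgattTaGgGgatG
C4a: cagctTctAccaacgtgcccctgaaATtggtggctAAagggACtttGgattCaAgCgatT
C4a had a median of 2.13 TPM in clone 1 (0 to 4.95), 21.9 TPM in clone 2 (6.96 to 37.0) and 0.347 TPM in wild type (0 to 1.82). The copies were thus both higher in clone 2 than in wild type without overlap, while C4a in clone 1 overlapped wild type.

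The order of the clones depended on the scale. The ribosomal window, the mitochondrial genes and the assembled transcripts given to no gene were taken out of the total. Those given to no gene held 17.7% to 37.2% of TPM in clone 1, 6.69% to 13.5% in clone 2 and 15.9% to 21.6% in wild type. The 37.2% came from the first library of clone 1 with MyoD alone, and the next highest of clone 1 was at 23.3%. The rescaled median of Lcn2 was then 497 in clone 1 (110 to 670), 53.9 in clone 2 (41.9 to 75.0) and 12.1 in wild type (2.85 to 21.02). That of Esm1 was 54.1 in clone 1 (26.5 to 83.9), 48.2 in clone 2 (34.0 to 52.3) and 0 in wild type. That of C4b was 85.5 in clone 1 (51.7 to 173), 41.9 in clone 2 (30.8 to 124) and 8.66 in wild type (0 to 24.6). By summed TPM, each gene therefore stayed higher in both clones than in wild type on both scales, the kind of difference for which they were chosen. Esm1 and summed C4b were higher in clone 2 than in clone 1 as deposited and not after rescaling. Both scales count unnamed transcripts. With only reference-named ones C4b was at 0 in 7 of 8 libraries of clone 1. By exon coverage C4b in clone 1 overlapped wild type, with a lowest value of 0.767 against a highest of 0.828. The parts of the total were taken out together, and what each did to the order of the clones was not tested.

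**Figure D3:**
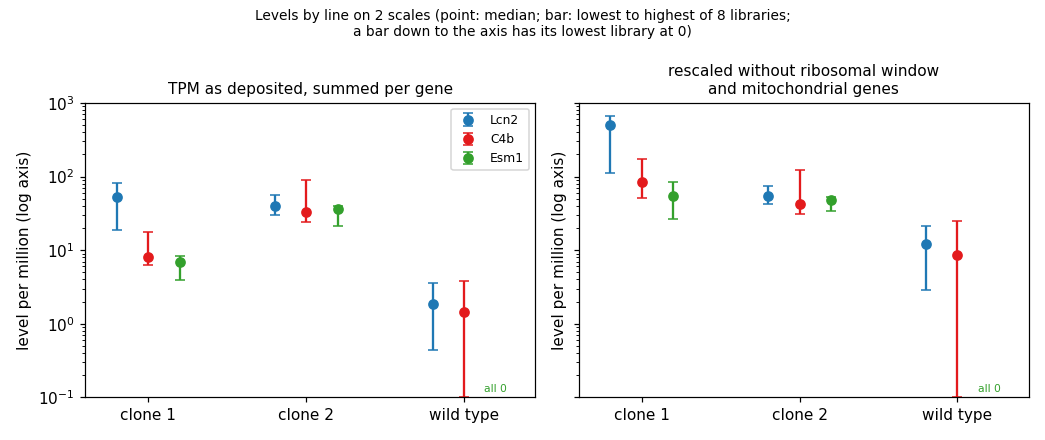
Median (points) and lowest to highest of 8 libraries (bars) for each gene and line, on a log axis. TPM is as deposited on the left and, on the right, rescaled without the ribosomal window, mitochondrial genes and transcripts given to no gene. By summed TPM the clones lie above wild type in both panels. For Esm1 the medians of clone 1 and clone 2 are 6.84 and 36.4 on the left and 54.1 and 48.2 on the right.

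No decrease with the plasmid was called for any of the 3 genes in either clone. A gene was called where its size of change reached 1 on the log2 scale and its Benjamini-Hochberg adjusted p, over all genes, was under 0.05 in limma on log2(TPM + 1), comparing 4 libraries with the plasmid and 4 without it over both MyoD states. Of all genes, 0.050% were called in clone 1, 0.761% in clone 2 and 0.00500% in wild type. The order of the clones in these counts depended on scale: 10 genes were called in clone 1 and 152 in clone 2 on TPM, against 133 and 4 with median-of-ratios scaling, and leaving out 1 library gave 2 to 125 in clone 1. None of the 3 genes was called, and in clone 1 the estimates for Lcn2 and Esm1 were above 0.

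In clone 1, Lcn2 had 82.60 and 73.44 TPM with the plasmid, against 55.65 and 57.19 TPM without it. With MyoD present it had 35.89 and 49.97 TPM with the plasmid, against 18.97 and 23.88 TPM without it. The values with the plasmid were higher without overlap in both states, at 1.38 and 2.00 times the mean without it, as they were for 2.42% of genes. The log2 change was 0.71 (SE 0.246, 95% interval 0.19 to 1.23, limma adjusted p 0.563). A within-state exact permutation test over samples, two-sided, gave p = 0.0556, the smallest value that its 36 arrangements allow. The 95% interval holds no decrease of Lcn2 in clone 1, but the intervals given here are not adjusted for the number of genes. In this comparison 1247 of 19983 genes had an unadjusted limma p under 0.05.

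In clone 2, Lcn2 had 51.09 and 38.56 TPM with the plasmid, against 38.45 and 42.07 TPM without it. With MyoD present it had 29.79 and 56.05 TPM with the plasmid, against 32.13 and 42.03 TPM without it. The groups overlapped in both states, and the log2 change was 0.14 (95% interval -0.38 to 0.66, limma adjusted p 0.990). In wild type, Lcn2 had 0.71 and 1.95 TPM with the plasmid, against 1.75 and 3.57 TPM without it, and 1.06 and 0.44 TPM with both agents, against 2.69 and 2.15 TPM with MyoD alone. Its log2 change in wild type was -0.82 (95% interval -1.34 to -0.30, limma adjusted p 0.454), where the median of all genes lay at -0.12. The mean response of the 2 clones minus that of wild type was 1.25 (SE 0.301, limma adjusted p 0.324), with the median of all genes at 0.21. It combines responses of 0.71 in clone 1, 0.14 in clone 2 and -0.82 in wild type. The response of wild type, where Lcn2 was at 0.44 to 3.57 TPM, was the largest of these in size. No gene was called in that comparison (0% of genes, with 1827 at an unadjusted p under 0.05).

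Esm1 gave a picture like that of Lcn2 in clone 1. It had 7.99 and 8.31 TPM with the plasmid, against 3.98 and 7.67 TPM without it, and 7.43 and 6.24 TPM with both agents, against 4.57 and 4.09 TPM with MyoD alone. The libraries with the plasmid were higher without overlap in both states, at 1.40 and 1.58 times the mean without it, as they were for 2.42% of genes. The log2 change was 0.51 (SE 0.214, 95% interval 0.06 to 0.97, limma adjusted p 0.705), and the exact permutation p was 0.0556.

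In clone 2, Esm1 had 30.54 and 39.35 TPM with the plasmid, against 37.25 and 36.49 TPM without it. With MyoD present it had 30.07 and 36.95 TPM with the plasmid, against 36.30 and 21.22 TPM without it. These groups overlapped, and the log2 change was 0.08 (95% interval -0.37 to 0.54, limma adjusted p 1). In wild type Esm1 remained listed at 0 with and without the plasmid.

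C4b in clone 1 had 6.59 and 6.38 summed TPM with the plasmid, against 6.64 and 8.43 without it, and 7.67 and 14.23 with both agents, against 14.81 and 17.81 with MyoD alone. The summed values with the plasmid were lower without overlap in both states, as they were for 0.906% of genes, with a log2 change of -0.38 (95% interval -1.10 to 0.33, limma adjusted p 1). By exon coverage C4b was at 2.42 and 4.68 with the plasmid, against 1.72 and 2.01 without it, and at 0.77 and 2.42 with both agents, against 2.72 and 1.82 with MyoD alone. By that measure the change was 0.11, so the direction in clone 1 turned with the measure.

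C4b in clone 2 had 32.20 and 32.87 summed TPM with the plasmid, against 28.79 and 23.96 without it, and 88.42 and 74.06 with both agents, against 27.43 and 73.73 with MyoD alone. The values with the plasmid were higher without overlap in both states, as for 3.77% of genes, and the log2 change was 0.56 (95% interval -0.15 to 1.28, limma adjusted p 0.713). By exon coverage the change was 0.345 (limma adjusted p 0.633), in the same direction as the summed values. By reference-named transcripts alone it was -0.90 (limma adjusted p 0.244), so here the sign turned with that measure only. In wild type C4b had 1.69 and 0.07 TPM with the plasmid, against 1.46 and 1.55 TPM without it, and 1.45 and 3.81 TPM with both agents, against 0.70 and 0 TPM with MyoD alone. These wild type values overlapped without MyoD, and over both states the change was 0.42 and was not called (limma adjusted p 0.959).

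**Figure D4:**
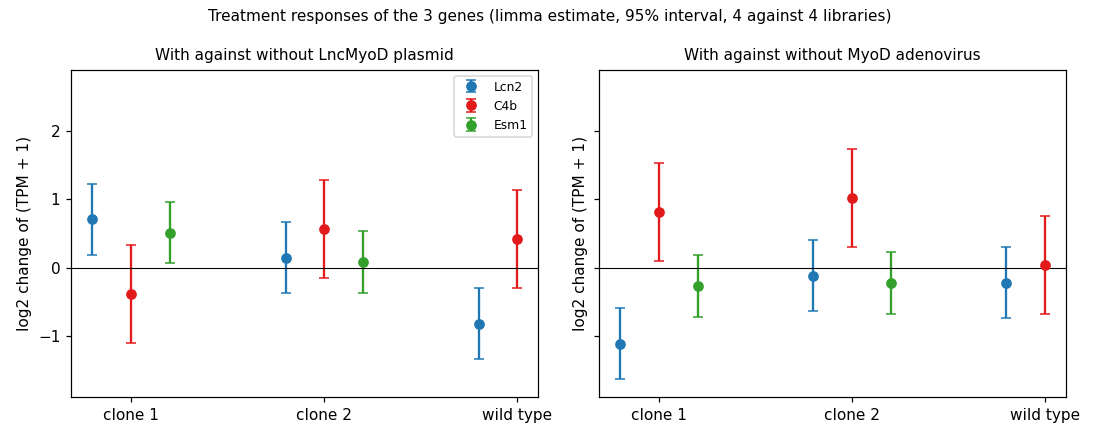
Log2 change of (TPM + 1) with its 95% interval (vertical axis) for Lcn2, C4b and Esm1 by line (horizontal axis), with against without the LncMyoD plasmid (left) and with against without MyoD adenovirus (right), 4 against 4 libraries each; Esm1 is not drawn for wild type, where it was listed at 0. The plasmid intervals of Lcn2 and Esm1 in clone 1 lie above 0, and the MyoD interval of Lcn2 in clone 1 runs from -1.63 to -0.59.

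The difference between the plasmid responses of the clones, clone 1 minus clone 2, was 0.56 for Lcn2, 0.43 for Esm1 and -0.95 for C4b on the log2 scale. None was called (limma adjusted p 0.780, 0.827 and 0.741, with 0.0601% of all genes called). The higher Lcn2 and Esm1 of clone 1 with the plasmid is thus not shown to differ from what clone 2 did.

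With MyoD, 1 of the 3 genes was called, C4b in clone 2, and Lcn2 in clone 1 was lower without overlap. In clone 1, Lcn2 had 18.97 and 23.88 TPM with MyoD, against 55.65 and 57.19 TPM without it, and 35.89 and 49.97 TPM with both agents, against 82.60 and 73.44 TPM with the plasmid alone. The means with MyoD were 0.380 and 0.550 times those without it, and all 4 libraries with MyoD lay below all 4 without it, as for 0.816% of genes. The exact permutation p was 0.0556, the smallest possible. The log2 change was -1.11 (SE 0.246, 95% interval -1.63 to -0.59), which missed the threshold at a limma adjusted p of 0.0918, where 0.115% of genes were called. It passed with median-of-ratios scaling in place of TPM, at -1.30 and a limma adjusted p of 0.0256, and when the second library with MyoD alone was left out (limma adjusted p 0.0498). It did not pass by exon coverage (limma adjusted p 0.180), by reference-named transcripts (limma adjusted p 0.661) or with any of the other 7 libraries of clone 1 left out (limma adjusted p up to 0.242).

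In clone 2, Lcn2 had 32.13 and 42.03 TPM with MyoD, against 38.45 and 42.07 TPM without it, and 29.79 and 56.05 TPM with both agents, against 51.09 and 38.56 TPM with the plasmid alone. The groups overlapped and the log2 change was -0.12 (limma adjusted p 0.803). In wild type the change was -0.22 (limma adjusted p 1, with 0.135% of genes called). The MyoD response of Lcn2 in clone 1 minus that in clone 2 was -0.99 (SE 0.347, limma adjusted p 0.0858, with 7.98% of genes called and the median of all genes at 0.31). With median-of-ratios scaling this difference was -1.58 and passed, at a limma adjusted p of 0.0357.

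C4b was the 1 member called for MyoD, in clone 2, where 13.0% of all genes were called, 2.02% higher and 10.9% lower, and the median of all genes lay at -0.23. It had 27.43 and 73.73 summed TPM with MyoD, against 28.79 and 23.96 without it, and 88.42 and 74.06 with both agents, against 32.20 and 32.87 with the plasmid alone. The log2 change was 1.02 (95% interval 0.31 to 1.74, limma adjusted p 0.0434), and 1 of the 4 libraries with MyoD lay among those without it. The call ended when any of 7 of the 8 libraries of clone 2 was left out, and over all 8 such fits the change was 0.67 to 1.37. It also ended with C4a and C4b summed (0.83, limma adjusted p 0.123). With reference-named transcripts the change turned to -2.10 (limma adjusted p 0.000218).

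In clone 2, less of the C4b TPM with MyoD carried the reference name. Reference-named C4b was at 20.72 and 4.02 TPM with MyoD, against 26.21 and 23.96 TPM without it, and at 2.03 and 2.53 TPM with both agents, against 26.14 and 20.25 TPM with the plasmid alone. In the 3 libraries with low named values, unnamed transcripts of 14 exons held the first 13 exons of C4b and then 1 exon beyond its 3′ end, in the span of Tnxb at chr17:34706619, at 37.2, 23.1 and 37.7 TPM. In 1 of these libraries a transcript of 24 exons joined C4b to C4a at 24.7 TPM. Such forms were not limited to MyoD: transcripts of 14 exons reached Tnxb at 1.81 and 4.54 TPM in the libraries of clone 2 with the plasmid alone, and C4b was joined to C4a at 4.32 TPM in 1 of them and at 0.823 TPM in 1 untreated library. Exon coverage, which counts named and unnamed transcripts over the same exons, was 20.94 and 30.11 with MyoD, against 26.37 and 22.57 without it, and 34.24 and 46.65 with both agents, against 27.79 and 22.71 with the plasmid alone. By that measure the log2 change was 0.34 and was not called (limma adjusted p 0.265).

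**Figure D5:**
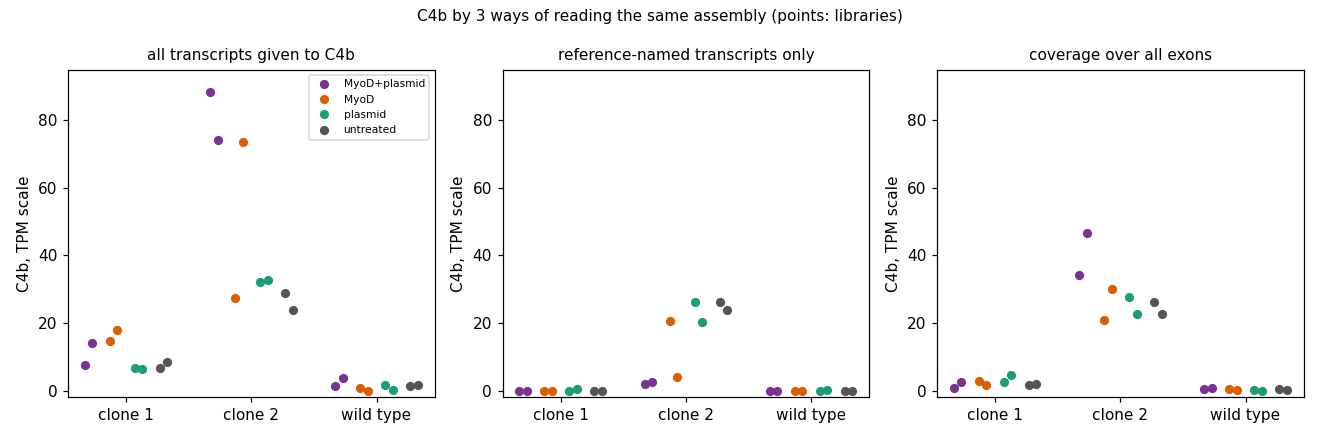
C4b on the TPM scale (vertical axis) in each library by line (horizontal axis) and treatment (colour), from all transcripts given to C4b (left), reference-named transcripts only (middle) and coverage averaged over all exons (right). In clone 2 the libraries with both agents are at 88.42 and 74.06, at 2.03 and 2.53, and at 34.24 and 46.65 by the 3 measures, while clone 1 lies near wild type in the middle panel.

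In clone 1, summed C4b was higher with MyoD without overlap in both plasmid states, as for 2.80% of genes, with a log2 change of 0.82 (limma adjusted p 0.540). By exon coverage that change was -0.33, again with the sign turned. For Esm1, MyoD gave -0.27 in clone 1 (limma adjusted p 0.923) and -0.23 in clone 2 (limma adjusted p 0.515), neither of which was called. The mean MyoD response of the 2 clones minus that of wild type was -0.40 for Lcn2 and 0.88 for C4b, with limma adjusted p of 0.689 and 0.454, while 0.320% of all genes were called. For Esm1, listed at 0 in all 8 wild type libraries, such a difference only restates the response of the clones and is not given.

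Genes of the pathways in which the 3 proteins act were taken from 5 lists. Of 39 genes of the complement system, 23 passed the filter on low values. By summed TPM, C4b was the 1 gene of these that lay above wild type in all 8 libraries of clone 1, and 15 did so in clone 2. Of all genes, 0.190% did so in clone 1 and 42.2% in clone 2. Of 36 acute phase genes and partners of Lcn2, all passed the filter, and 4 lay above wild type in every library of both clones, as did 0.105% of all genes. They were Lcn2, which was chosen for this, Saa3 and Hp, which encode acute phase proteins, and Cebpd, which encodes a C/EBP factor. Saa3 was listed at 0 in wild type and was as low as 0.1002 TPM in clone 1, and Cebpd was at 8.14 TPM or more in the clones, against at most 7.86 TPM in wild type. Of 33 genes around endocan and VEGF, 32 passed the filter, and Esm1, chosen for this, and Epas1, a hypoxia-inducible factor, lay above wild type in both clones. None of the 18 interferon gamma genes or the 23 NF-kB genes that passed the filter did so in clone 1, while 13 and 17 did in clone 2.

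Few genes of these lists were called for the plasmid, as few were among all genes (0.050% in clone 1, 0.761% in clone 2 and 0.00500% in wild type), so the counts show nothing about the lists. None was called in clone 1 or wild type in any of the 5 lists, and in clone 2 there were 2, both acute phase genes. Chosen after their values were seen, these were Saa1 (log2 change 1.21, limma adjusted p 0.00135) and Saa2 (-1.24, limma adjusted p 0.00443), near copies whose split is uncertain and whose highest values in clone 2 were 4.98 and 2.65 TPM. List medians for the plasmid in clone 1 were 0.15 for complement, 0.08 for acute phase, 0 for endocan and VEGF, 0.11 for interferon gamma and 0.08 for NF-kB, against 0.00 for all genes.

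Part of each list fell with MyoD in clone 2, where 10.9% of all genes fell and 2.02% rose. None was called in clone 1 or wild type, where 0.115% and 0.135% of all genes were. Of the 23 complement genes tested, 8 fell (34.8%), with a median of -0.83 against -0.23 for all genes tested. C4b was the 1 called higher, a call that ended with any of 7 of 8 libraries left out and turned to -2.10 by reference-named transcripts. Serping1, the C1 inhibitor, was at 8.01 to 23.8 TPM with MyoD, against 33.5 to 54.2 TPM without it (log2 change -1.75, limma adjusted p 0.000152). C1ra, a protease that activates C1s and so acts just before C4, was at 86.8 to 123 TPM with MyoD, against 219 to 391 TPM without it (log2 change -1.56). Cd55, which breaks down C3 convertases, was at 7.60 to 15.8 TPM with MyoD, against 32.5 to 55.7 TPM without it (log2 change -1.82). C1s1, Cr1l and Colec12 fell as well.

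Of the 36 acute phase genes and partners of Lcn2, 8 fell (22.2%, against 10.9% of all genes) and 2 rose (5.56%, against 2.02%) with MyoD in clone 2, with a median of -0.38. Socs3, the feedback inhibitor of interleukin 6 signalling, was at 12.2 to 23.2 TPM with MyoD, against 143 to 245 TPM without it (log2 change -3.34, limma adjusted p 1.81e-07). Il6 was at 0 to 2.18 TPM with MyoD, against 10.4 to 19.99 TPM without it (log2 change -3.72). Nfkbiz, the IkappaBzeta that Lcn2 transcription is known to need, was at 18.2 to 22.6 TPM with MyoD, against 107 to 170 TPM without it (log2 change -2.74). Cebpd and Serpina3n fell by 1.82 and 1.83 on the log2 scale. Saa3, an acute phase protein, rose, at 50.6 to 69.3 TPM with MyoD, against 10.98 to 19.4 TPM without it (log2 change 1.81, limma adjusted p 5.94e-05). In the same libraries Lcn2 itself changed by -0.12 and was not called. A link between these genes and Lcn2 in these cells was not tested.

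Of the 32 genes around endocan and VEGF tested, 7 fell (21.9%, against 10.9% of all genes) and 0 rose (against 2.02%) with MyoD in clone 2, with a median of -0.29. Angptl4, a secreted lipase inhibitor, was at 51.0 to 79.5 TPM with MyoD, against 269 to 307 TPM without it (log2 change -2.06). Nrp1, a VEGF co-receptor, Xylt2, Dse and Chst14, enzymes that make dermatan sulphate chains, and Hgf, a ligand of endocan, also fell, while Esm1 was not called. Of the 18 interferon gamma genes 3 fell (16.7%) and 0 rose, with a median of -0.36, not far from the share of all genes. The 3 were Irf1, a transcription factor at 39.3 to 55.3 TPM with MyoD, against 191 to 332 TPM without it (log2 change -2.50), the receptor chain Ifngr1 and the peptide transporter Tap1. Of the 23 NF-kB genes 5 fell (21.7%) and 0 rose, with a median of -0.57. Ptgs2, cyclooxygenase 2, was at 2.06 to 6.73 TPM with MyoD, against 33.3 to 47.0 TPM without it (log2 change -2.98), and Vcam1, an adhesion molecule, at 93.4 to 159 TPM, against 297 to 531 TPM (log2 change -1.92), with Cxcl1, Il17ra and Bcl3 falling as well.

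These list counts depended on scale, and the median of all genes in clone 2 with MyoD lay at -0.23. With median-of-ratios scaling, which sets that median to 0, the calls over all genes were 390 higher and 363 lower. Of 21 complement genes tested 1 was then higher and 2 lower, and of 33 acute phase genes 1 and 5. The counts were 1 and 2 of 32 for endocan and VEGF, 0 and 1 of 17 for interferon gamma and 0 and 2 of 23 for NF-kB. Angptl4, C1ra, Cebpd, Il6, Irf1, Nfkbiz, Nrp1, Ptgs2, Saa3, Serping1, Socs3 and Vcam1 were still called, and the other genes named for MyoD in clone 2 kept their direction and lost the call. By exon coverage every list gene named above as falling, and Saa3, kept its call. The list medians were then -1.20 for complement, -0.34 for acute phase, -0.66 for endocan and VEGF, -0.26 for interferon gamma and -0.67 for NF-kB, against -0.30 for all genes.

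Genes whose levels ran most alike over the 24 libraries were found by Pearson r of log2(TPM + 1) among 7608 protein-coding genes. The libraries share their line, and the r values describe mostly the 3 lines. For Lcn2 they were Ces2e (0.860), Esm1 (0.857), Ccn3 (0.854), Fhl1 (0.838) and Vgll3 (0.833). For C4b they were Epas1 (0.923), Pid1 (0.921), Esm1 (0.916), Cxcl12 (0.913) and Limch1 (0.906). For Esm1 they were Cdkn2b (0.972), Fhl1 (0.957), Sfrp2 (0.943), Epas1 (0.943) and Hs6st2 (0.935). Cdkn2b, for example, was at 3.28 to 5.75 TPM in clone 1, 48.4 to 105 TPM in clone 2 and 0 in every wild type library, the order seen for Esm1. The 3 members were chosen for one difference between the lines, so r among them follows from the choice.

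Within lines the r values among the 3 genes were lower or negative. With the mean of each line subtracted, r was 0.393 between Lcn2 and Esm1, -0.476 between Lcn2 and C4b and -0.417 between C4b and Esm1. The genes then most like Lcn2 were Pdxk (0.746) and Nsmaf (0.731), those most like C4b were Gabre (0.685) and Pid1 (0.663), and those most like Esm1 were Htra3 (0.790) and Mtrr (0.771). Of these, Pid1 was the 1 gene that also stood among the 5 most like C4b before subtraction.

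The 3 genes have known sources other than fibroblasts, and markers of those cells were read in the same libraries. The summed TPM of 10 fibroblast markers was 282 to 363 in clone 1, 5463 to 16346 in clone 2 and 466 to 740 in wild type. A marker listed at 0 can be a failed assembly. Of 8 endothelial markers, Cdh5, Emcn and Erg were listed at 0 in all libraries. Tek reached 2.55 TPM in clone 1, 13.2 TPM in clone 2 and 3.88 TPM in wild type, and Vwf 3.18, 4.96 and 1.71 TPM. The endothelial sum was 0.162 to 7.51 in clone 1, 2.61 to 14.7 in clone 2 and 0.0576 to 4.49 in wild type. Of 7 neutrophil markers, S100a9, Mpo and Ngp were listed at 0 in all libraries. Camp was at 1.08 to 3.04 TPM in clone 2, against at most 0.393 TPM in clone 1 and 0.341 TPM in wild type. Ltf reached 4.97 TPM in clone 1 and 2.53 TPM in clone 2. The neutrophil sum was 0 to 4.97 in clone 1, 1.71 to 5.46 in clone 2 and 0 to 0.341 in wild type. Of 8 macrophage markers, Adgre1, Tyrobp and Fcer1g were listed at 0 in all libraries. Ptprc reached 6.60 TPM in clone 1, and Lyz2 reached 6.27 TPM in clone 2. The macrophage sum was 0 to 10.4 in clone 1, 3.76 to 10.7 in clone 2 and 0 to 3.33 in wild type. The 5 epithelial markers summed to 0 to 2.60 in clone 1, 0 to 4.63 in clone 2 and 0 to 0.805 in wild type. The 6 adipocyte markers summed to 0.125 to 8.69 in clone 1, 39.4 to 74.7 in clone 2 and 0.851 to 4.46 in wild type. Clone 2 thus stood apart in the adipocyte and fibroblast sums. All 8 of its libraries lay above wild type for 7 of 10 fibroblast markers and 3 of 4 adipocyte markers tested, against 42.2% of all genes. Plin1, however, was listed at 0 in clone 2 and reached 3.31 TPM in clone 1. Thy1 was at 2.94 to 8.46 TPM in clone 2, against 7.78 to 15.7 TPM in clone 1. The part of such cell types in the levels of Lcn2, C4b and Esm1 was not tested.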

How the data were processed

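RNA of 24 libraries was measured. Per the labels, a SMART-Seq v4 kit, which keeps no strand, gave the cDNA, and read pairs were 100 bases long. The submitters' processing notes list mm10, HISAT2 2.1.0, StringTie 1.3.3, SAMtools 1.3, bcl2fastq 2.19 and Trimmomatic 0.36; StringTie 2.1.2, guided by GENCODE vM21, stands in the file headers. The authors' deposited files give, for each assembled transcript, a coverage signal, FPKM and TPM, and other values were not used. Depth, taken from coverage, was 2.43 to 5.93 gigabases of aligned fragments. How many reads lie behind a value is not known, so values carry no counting interval.

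TPM was summed per gene over reference-named transcripts and unnamed transcripts with at least 50% of their exonic length in the gene on the same strand. Transcripts that met neither held 6.69% to 37.2% of TPM. Genes with no assembled transcript were set to 0, and antisense genes are uncertain. Genes at 1 TPM or more in 2 or more libraries entered limma 3.58.1 (R 4.3.3), with a trend of variance on mean, on log2(TPM + 1), a scale that understates changes of low genes, and with 1 mean for each of 12 groups. The Benjamini-Hochberg adjustment ran over 19983 genes within each of 10 comparisons, 2 of them (clone 1 minus clone 2) added after the data were seen. The script was tested on simulated data. A single value was also tested by permuting libraries within treatment states, two-sided. The members and lists were chosen with earlier results of these data known. The text names the 3 members, C4a, up to 6 genes with the largest change among those called in each list, and the 5 genes most like each member; exceptions are stated. Alternatives were the pseudocount, the filter, reference-named transcripts, the scaling, the libraries fitted, a replicate block, C4a and C4b summed, exon coverage and leaving out each library.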

Additional observations from a re-analysis of the deposited data

Results flagged for a closer look

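Among the genes named from the lists, 3 were called by limma for the mean MyoD response of the 2 clones minus that of wild type. They are given here because of that call, and 0.320% of all genes were called in the comparison. The count is therefore no result about the lists. Serping1, the C1 inhibitor, differed by -1.76 on the log2 scale (SE 0.308, limma adjusted p 0.0191), with responses of -0.53 in clone 1, -1.75 in clone 2 and 0.62 in wild type. Socs3 differed by -1.499 (limma adjusted p 0.0493), with 0.15 in clone 1, -3.34 in clone 2 and -0.10 in wild type, so clone 1 lay above wild type and the difference came from clone 2. Ptgs2 differed by -2.80 (limma adjusted p 0.0369), with -0.24 in clone 1, -2.98 in clone 2 and 1.19 in wild type. With median-of-ratios scaling Serping1 still passed (-1.52, limma adjusted p 0.0259), while Socs3 (-1.23, limma adjusted p 0.149) and Ptgs2 (-2.53, limma adjusted p 0.0714) did not.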

How the results depend on the processing

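Of 238 log2 changes of the members recomputed under the alternatives other than leaving out a library, 207 kept their direction and side of the threshold, 21 turned, 2 passed newly and 8 lost the call; of 368 with 1 library left out, 344 were kept. Of 66 and 128 counts of genes called, 34 and 77 stayed within 1.5 times. For Lcn2 the plasmid changes kept direction and call in clone 1 under every alternative, and those that turned are named here.

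With a pseudocount of 0.1, 105 genes were called for the plasmid and 101 for MyoD in clone 1, 41 for the MyoD response of the clones minus wild type, and C4b with MyoD was at 1.04 in clone 2 (limma adjusted p 0.393) and -0.17 in wild type. Without the filter, the plasmid calls were 16 in clone 1 and 3 in wild type, 9 for the clones minus wild type and 46 for clone 1 minus clone 2, and the limma adjusted p of C4b with MyoD in clone 2 (1.02) was 0.0853. With reference-named transcripts, plasmid calls were 5 in clone 1 and 293 in clone 2, 230 genes were called for the MyoD response of the clones minus wild type and 69 for the plasmid response of clone 1 minus clone 2. C4b was then at 0.11 and -0.90 for the plasmid in clone 1 and clone 2, at -0.11, -2.10 and -0.024 for MyoD in clone 1, clone 2 and wild type, at -1.08 for the MyoD response of the clones minus wild type, and at 1.01 and 1.99 for the plasmid and MyoD responses of clone 1 minus clone 2.

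With median-of-ratios scaling, the plasmid calls were 133 in clone 1, 4 in clone 2 and 7 for clone 1 minus clone 2, and the MyoD calls 213 in clone 1, 753 in clone 2, 55 in wild type, 29 for the clones minus wild type and 554 for clone 1 minus clone 2. Lcn2 with MyoD was then at -1.30 in clone 1, 0.28 in clone 2 and -1.58 for clone 1 minus clone 2, and Esm1 in clone 2 at -0.037 for the plasmid and 0.18 for MyoD. Fitted on the libraries of 1 line, the plasmid and MyoD calls were 1 and 4 in clone 1 and 28 and 1572 in clone 2, with C4b with MyoD in clone 2 at 1.02 (limma adjusted p 0.104); this fit cannot give differences between lines. The rescaling left out the ribosomal window, mitochondrial genes and transcripts given to no gene. Rescaled in this way, Esm1 with the plasmid in clone 2 was at -0.015 and Lcn2 with MyoD in clone 2 at 0.013. C4b with MyoD was at 1.16 in clone 2 (limma adjusted p 0.464) and -0.014 in wild type. With C4a and C4b summed, C4b was at 0.83 for MyoD in clone 2 and 0.20 for the plasmid response of the clones minus wild type. With exon coverage, added after the data were seen, the plasmid calls were 1 in clone 1, 0 in wild type, 5 for the clones minus wild type and 2 for clone 1 minus clone 2, and the MyoD calls 13 in clone 1, 291 for the clones minus wild type and 2649 for clone 1 minus clone 2. C4b was then at 0.11 and -0.042 for the plasmid in clone 1 and wild type, at -0.33 and 0.34 for MyoD in clone 1 and clone 2, and at 0.27 and -0.28 for the plasmid and MyoD responses of the clones minus wild type. By exact permutation C4b with MyoD in clone 2 (1.02) had p = 0.111. The cause of these differences was not tested.

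Libraries of the same number did not deviate together: the correlation of their deviations lay between -0.05 and 0.03 over 66 pairs of groups. With the replicate block, the plasmid calls in clone 1 were 1, the MyoD response of the clones minus wild type had 42 calls, and C4b with MyoD in clone 2 (1.02) had a limma adjusted p of 0.0509.

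With 1 library left out, the plasmid calls ranged over 2 to 125 in clone 1, 206 to 362 in clone 2, 0 to 4 in wild type, 0 to 2 for the clones minus wild type and 6 to 86 for clone 1 minus clone 2, and the MyoD calls over 13 to 209 in clone 1, 16 to 27 in wild type and 21 to 109 for the clones minus wild type. Lcn2 with MyoD ranged over -1.23 to -0.998 in clone 1, -0.34 to 0.10 in clone 2 and -1.22 to -0.77 for clone 1 minus clone 2 (limma adjusted p 0.0366 to 0.178). C4b with MyoD ranged over 0.67 to 1.37 in clone 2, -0.29 to 0.37 in wild type and -0.55 to 0.15 for clone 1 minus clone 2, and its plasmid response of the clones minus wild type over -0.66 to 0.0070. Esm1 ranged over -0.10 to 0.27 for the plasmid in clone 2 and -0.24 to 0.16 for the MyoD response of clone 1 minus clone 2, and Lcn2 over -0.078 to 0.37 for the plasmid in clone 2.

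Depth in reads is unknown, so the precision of low values such as Lcn2 and C4b in wild type cannot be given, and Esm1 at 0 there does not show that its RNA was absent. Each genotype is held by single lines, so differences between lines are no test of the genotype.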
